A study of Mus musculus with 14 samples.

Results

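Transcripts of 47 cell cycle and DNA replication genes were followed in 14 mouse thymic lymphomas. The genes comprised 20 mitosis genes, 23 S-phase genes and 4 genes of the G1 phase, namely 2 D-type cyclins and the 2 kinases that they activate. A gene was measured where at least 1 probe set of the array was annotated to it and to no other gene. Its level was the mean of the log2 values of those probe sets. By this rule 44 of the 47 genes were measured, out of 15803 genes in the whole table. They rested on 618 probe sets and comprised 19 mitosis, 21 S-phase and 4 G1 genes. Ccnb1, Rrm2 and Pcna had no probe set annotated to them alone and have no value here.

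The tumours came from a pair of T-ALL (T-cell acute lymphoblastic leukaemia) models in the mouse, with 7 tumours labelled Vav-SB and 7 labelled CD4-SB. In both, the Sleeping Beauty transposon moves in the genome and mutates the genes into which it inserts. As background, the promoters of Vav and CD4 are used to start Sleeping Beauty by Cre recombinase in blood-forming stem and progenitor cells and in developing T cells respectively. The promoter sets where mutation can begin and does not by itself show the cell from which a tumour grew. The labels give the strain name and the disease, with no age, further allele or treatment. According to the series title, the study asked how the cell of origin acts on genetic selection in T-ALL.

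A cell prepares to divide by passing from G1, where D-type cyclins with Cdk4 or Cdk6 inactivate the retinoblastoma protein and free E2F factors, into S phase, where the MCM helicase opens DNA and polymerases copy it. In G2 and mitosis, FoxM1 and the MuvB complex with B-Myb switch on genes of the spindle, the kinetochore and chromosome segregation. In a tumour, these transcripts are high in cells that are in cycle and low in cells that rest. Thymocytes divide in bursts between the steps of antigen receptor rearrangement.

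The promoters of the genes differed by phase in the motifs they held. Windows from 250 bases before to 50 bases after an annotated start, from RefSeq on GRCm38.p6, were held for 37 of the 47 genes (39 windows). They were searched on both strands for E2F-like cores (TTCCCGC or TTCGCGC or TTGCCGC or TTGGCGC), for the cell cycle homology region or CHR (TTTGAA or TTCGAA), which the MuvB complex binds, and for the CCAAT box of NF-Y (CCAAT). Of 16 windows of mitosis genes, 13 (81.2%) held a CHR, 15 (93.8%) a CCAAT box, and 13 (81.2%) both. Over all 32851 windows of the table the shares were 19.2%, 37.4% and 7.52%. Of 19 windows of S-phase genes, 12 (63.2%) held an E2F-like core, 3 (15.8%) a CHR and 12 (63.2%) a CCAAT box. An E2F-like core was found in 3 (18.8%) of the mitosis windows and in 9.57% of all windows. Of 4 windows of G1 genes, 0 held an E2F-like core or a CHR and 1 held a CCAAT box. A match is a run of letters and not a measured binding site.

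The windows of 5 genes are shown. Of the genes with a window, Kif11, Cdk1, Ccnb2 and Mcm5 were taken because they followed their own group most closely over the tumours, and Tyms because its difference between the models passed the test. Each sequence is given 5′ to 3′ in the direction of transcription, on GRCm38.p6, with matches on either strand in capitals; overlapping matches form a longer run, as TTCGCGC and the reverse complement of TTGGCGC do in Mcm5. Kif11 lies on the plus strand (chr19:37376132-37376431), with 1 CHR and 1 CCAAT box. Ccnb2 lies on the minus strand (chr9:70421505-70421804), with 2 CHR and 3 CCAAT matches. Cdk1 lies on the minus strand (chr10:69352863-69353162), with 2 E2F-like, 2 CHR and 3 CCAAT matches. Mcm5 lies on the plus strand (chr8:75109259-75109558), with 3 E2F-like and 3 CCAAT matches. Tyms lies on the minus strand (chr5:30073576-30073875) and its window held 0 matches, which says only that these letters are not in it.
Kif11: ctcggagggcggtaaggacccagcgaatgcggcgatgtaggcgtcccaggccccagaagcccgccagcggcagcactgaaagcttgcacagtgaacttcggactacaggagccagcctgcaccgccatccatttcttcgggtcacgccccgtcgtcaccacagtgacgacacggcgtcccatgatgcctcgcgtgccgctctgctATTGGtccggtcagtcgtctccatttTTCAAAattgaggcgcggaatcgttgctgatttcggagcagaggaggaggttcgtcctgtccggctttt
Ccnb2: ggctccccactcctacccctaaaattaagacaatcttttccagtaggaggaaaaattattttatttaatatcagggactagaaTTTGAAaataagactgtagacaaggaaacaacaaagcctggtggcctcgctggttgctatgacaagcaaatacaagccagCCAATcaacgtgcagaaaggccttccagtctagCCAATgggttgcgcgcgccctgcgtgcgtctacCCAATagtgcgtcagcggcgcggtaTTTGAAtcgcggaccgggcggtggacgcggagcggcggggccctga
Cdk1: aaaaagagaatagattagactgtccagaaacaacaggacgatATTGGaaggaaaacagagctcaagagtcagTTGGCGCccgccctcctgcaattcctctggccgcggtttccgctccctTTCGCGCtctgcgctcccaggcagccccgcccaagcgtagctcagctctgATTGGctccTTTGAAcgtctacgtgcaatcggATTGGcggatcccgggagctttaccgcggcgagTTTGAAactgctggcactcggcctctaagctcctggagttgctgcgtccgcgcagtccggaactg
Mcm5: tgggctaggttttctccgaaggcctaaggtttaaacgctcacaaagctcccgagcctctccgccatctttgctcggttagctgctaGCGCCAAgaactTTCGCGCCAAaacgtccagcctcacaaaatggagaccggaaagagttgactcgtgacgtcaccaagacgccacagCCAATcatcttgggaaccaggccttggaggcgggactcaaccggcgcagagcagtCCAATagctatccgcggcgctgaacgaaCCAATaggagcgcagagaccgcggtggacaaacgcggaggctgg
Tyms: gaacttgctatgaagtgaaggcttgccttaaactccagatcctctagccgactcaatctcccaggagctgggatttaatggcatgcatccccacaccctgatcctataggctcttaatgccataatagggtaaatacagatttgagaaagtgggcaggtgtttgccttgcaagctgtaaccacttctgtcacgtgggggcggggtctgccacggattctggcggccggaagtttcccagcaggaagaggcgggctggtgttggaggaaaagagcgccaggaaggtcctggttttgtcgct

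The deposited values are log2 intensities per probe set, with column medians from 7.46 to 7.50, and differences in total RNA between tumours are not visible in them. Over all probe sets, tumours correlated with one another at 0.877 to 0.968. Of 10 T-lineage marker genes 9 were measured, and their mean level was 10.56 to 10.97 in Vav-SB and 9.88 to 10.54 in CD4-SB, against a median of 7.22 over all genes. These ranges lay just apart. Of the 9 markers, 3 were higher in Vav-SB at a limma adjusted p under 0.05, against 7.28% of all genes, and 0 in CD4-SB, against 7.18%. Tumours are named by model and replicate, numbered in accession order. CD4-SB replicates 1 and 2 share a title number, as do replicates 5, 6 and 7, and the labels do not say whether a number marks an animal. The p-values therefore measure the spread between these tumours. In bulk tissue, fewer cells of a type and less RNA per cell cannot be told apart.

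The level of the cell cycle genes varied widely between tumours of the same model. For each tumour, the deviation of every gene from its mean over the 14 tumours was averaged over the mitosis and over the S-phase genes. For the mitosis genes, the Vav-SB tumours stood at 0.68, 0.40, -0.38, 0.18, 0.52, 0.30 and 0.61 (replicates 1 to 7, log2). The CD4-SB tumours stood at -0.53, 0.38, -2.12, 0.63, -0.50, -0.34 and 0.18. Thus 6 of 7 Vav-SB tumours lay above 0, the CD4-SB tumours lay on either side of it, and the models overlapped. Replicate 3 was the lowest tumour in each model. For the S-phase genes, the Vav-SB tumours stood at 0.55, 0.48, -0.51, -0.02, 0.39, 0.27 and 0.34. The CD4-SB tumours stood at -0.60, 0.29, -1.40, 0.53, -0.60, -0.33 and 0.60. Replicate 3 was again the lowest of each model, and CD4-SB replicate 7 was the highest of all 14.

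**Figure D1:**
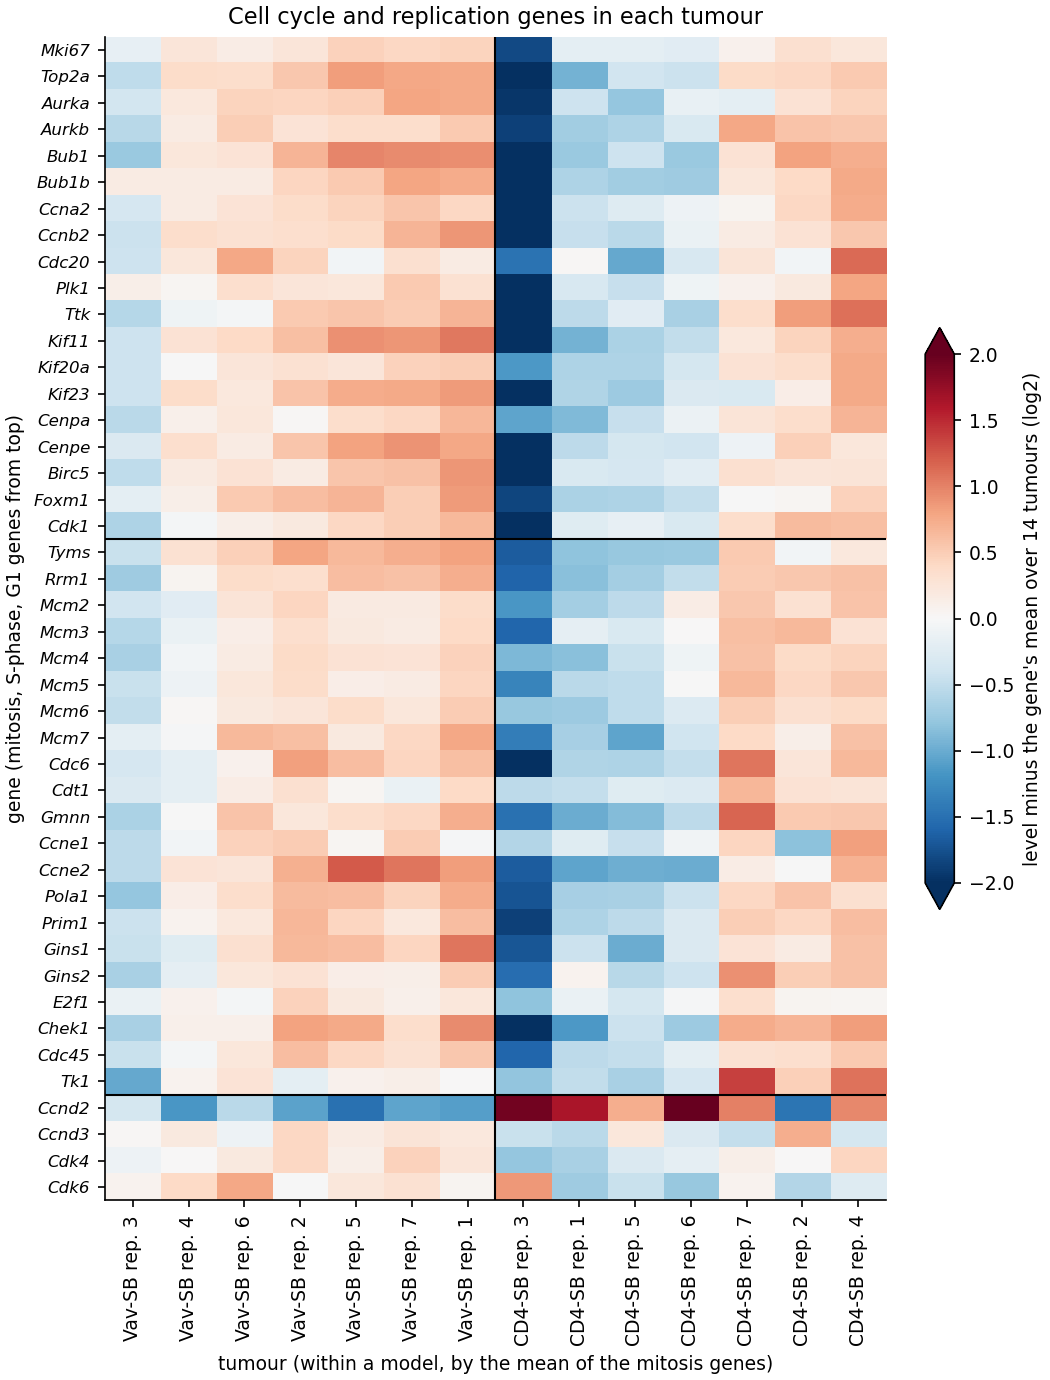
Level of each of the 44 genes in each tumour as the log2 difference from the mean of that gene over 14 tumours; columns are tumours, ordered within a model by the mitosis genes, and rows are genes by phase, with colours capped at -2 and 2. CD4-SB replicate 3 is the darkest blue column through the mitosis and S-phase genes, and Ccnd2 is red in 6 of 7 CD4-SB tumours.

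CD4-SB replicate 3 had the lowest level of the 14 tumours in 19 of 19 mitosis genes and in 19 of 21 S-phase genes. The exceptions were Ccne1, lowest in CD4-SB replicate 2, and Tk1, lowest in Vav-SB replicate 3. Vav-SB replicate 3 had the lowest level of its model in 18 of 19 mitosis and 21 of 21 S-phase genes, the exception being Plk1, lowest in Vav-SB replicate 4. No label sets either tumour apart. Counts of cell cycle genes past the threshold are given again without both. Both were picked by their low level of these same genes, so leaving them out can narrow the spread of those genes. A call kept or gained without both is therefore no further support for a difference. The counts of genes by their correlation with the S-phase and mitosis genes rest on all 14 tumours.

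Between the models, 2 of the 44 genes were higher in Vav-SB tumours at an adjusted p under 0.05 (limma, Benjamini-Hochberg over 15803 genes), against 7.28% of all genes, and 1 was higher in CD4-SB, against 7.18% of all genes. These were Tyms and Foxm1, and Ccnd2. The count in either direction, 3 of 44, lay below the 14.5% of all genes called. At an unadjusted p under 0.05, 13 of 44 (29.5%) passed, against 27.8% of all genes. No gene of the 44 separated the models without overlap, whereas 4.04% of all genes did, 2.51% with Vav-SB above and 1.53% with CD4-SB above. In direction the 44 genes were one-sided: 42 differences lay above 0 (higher mean in Vav-SB), against 50.7% of all genes. The median difference was 0.61 for the mitosis, 0.46 for the S-phase and 0.35 for the G1 genes, against 0.00 over all genes. Without CD4-SB replicate 3 it was 0.31 for the mitosis and 0.24 for the S-phase genes. With a single tumour per title number it was 0.93 and 0.75. That choice kept the first CD4-SB tumour of each number, replicates 1, 3, 4 and 5 (mitosis deviations -0.53, -2.12, 0.63 and -0.50). It left out replicates 2, 6 and 7 (0.38, -0.34 and 0.18), so the larger values hold for the tumours kept. Since these genes move together over the tumours, their common direction is not 44 separate observations. Leaving out 1 tumour at a time gave 1 gene higher in CD4-SB each time and 0 to 6 higher in Vav-SB, against 5.42% to 7.66% of all genes. The count was 0 in 9 of the 14 cases (limma; 6 to 11 genes at an unadjusted p under 0.05) and 6 without CD4-SB replicate 4. Without CD4-SB replicate 3 and Vav-SB replicate 3 together, an alternative chosen after the data were seen, 7 genes passed as higher in Vav-SB (7.33% of all genes) and 1 as higher in CD4-SB (7.05%), and the median difference over the 44 genes was 0.34.

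**Figure D2:**
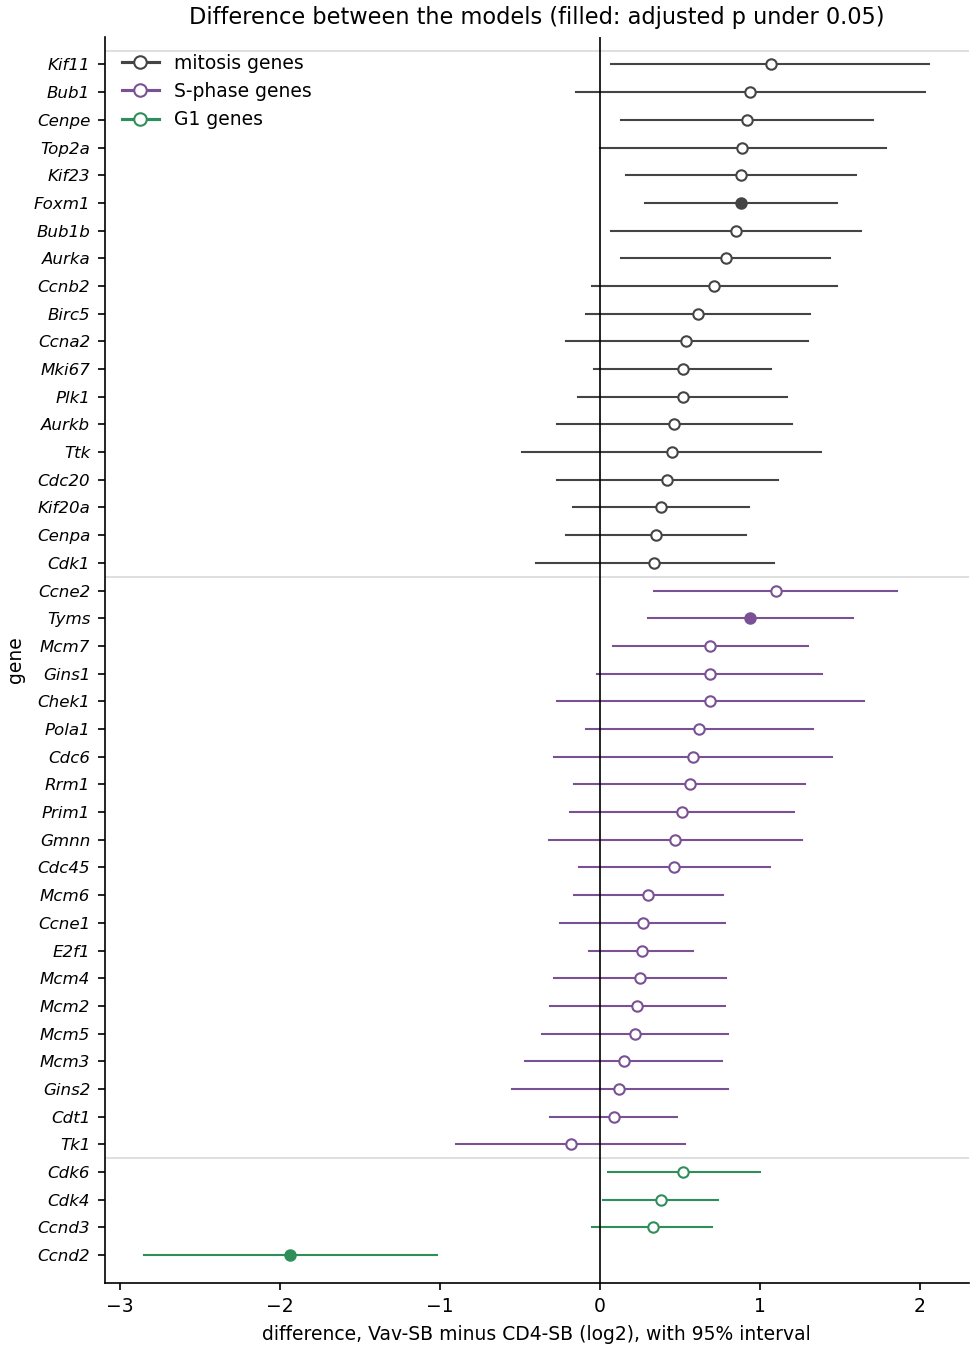
Difference of the mean log2 level, Vav-SB minus CD4-SB (n = 7 tumours each), for 44 genes in order of size within each phase, with the 95% interval of the limma fit; filled points passed an adjusted p of 0.05. Of the 44 points, 42 lie above 0 and 3 are filled, with Ccnd2 far below 0.

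Among the regulators of the mitotic programme, Foxm1, the transcription factor of G2 and mitosis genes, had 8.28 as its lowest, 9.0 as its median and 9.32 as its highest level in Vav-SB, and 6.64, 8.0 and 8.93 in CD4-SB. Of 7 Vav-SB tumours, 5 lay above every CD4-SB tumour, and the ranges overlapped. Foxm1 was higher in Vav-SB (8.91 ± 0.36 against 8.03 ± 0.73, SD, n = 7 each) by 0.88 ± 0.28 (SE), or 1.84-fold (limma adjusted p = 0.0496). That call was lost when any of 9 tumours was left out, CD4-SB replicates 1, 5 and 6 and Vav-SB replicates 1, 2, 4, 5, 6 and 7 (adjusted p up to 0.0975). It was kept without CD4-SB replicate 3 (0.0494). The adjusted p was 0.0196 without both low tumours, which were picked by their low level of these same genes.

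The kinases and cyclins that drive entry into mitosis did not pass the test. Cdk1, the mitotic kinase, lay between 8.70 and 9.97 in Vav-SB (median 9.52) and between 7.26 and 9.96 in CD4-SB (median 9.16), with a difference of 0.34 ± 0.35 (adjusted p = 0.585). Its partner Ccna2 (cyclin A2) had a Vav-SB range of 9.26 to 10.14 (median 9.96) and a CD4-SB range of 7.28 to 10.33 (median 9.49), a difference of 0.54 ± 0.35 (adjusted p = 0.353). CD4-SB replicate 4 was the highest tumour of both models for Ccna2, and CD4-SB replicate 3 the lowest. Ccnb2 (cyclin B2) ran from 9.70 to 11.02 in Vav-SB (median 10.49) and from 7.79 to 10.67 in CD4-SB (median 10.0), with a difference of 0.71 ± 0.36 (adjusted p = 0.214). Plk1, a kinase of centrosomes and kinetochores, and Cdc20, which activates the anaphase-promoting complex, differed by 0.52 ± 0.31 and 0.42 ± 0.32 (adjusted p = 0.303 and 0.447). Plk1 had the largest ratio of spreads of all 44 genes, with an SD 5.64 times as large in CD4-SB as in Vav-SB.

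Aurka, the kinase of the spindle poles, had a lowest, median and highest level of 9.04, 9.85 and 10.20 in Vav-SB and of 7.46, 9.21 and 9.86 in CD4-SB. Its difference of 0.79 ± 0.31 did not pass (adjusted p = 0.105), and passed without both low tumours. Aurkb, the catalytic subunit of the chromosomal passenger complex, ranged over 8.58 to 9.66 in Vav-SB (median 9.48) and 7.27 to 9.90 in CD4-SB (median 8.83). For Aurkb, 3 CD4-SB tumours lay above every Vav-SB tumour and 3 below every one, around a difference of 0.46 ± 0.35 (adjusted p = 0.43). Birc5 (survivin), of the same complex, had 9.09, 9.89 and 10.48 in Vav-SB and 7.49, 9.39 and 9.92 in CD4-SB as its lowest, median and highest level. The Birc5 difference was 0.61 ± 0.33 (adjusted p = 0.246), and 6 of 7 CD4-SB tumours lay within the Vav-SB range.

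Of the spindle checkpoint genes, Bub1 varied most within the models of all mitosis genes. Its lowest, median and highest levels were 8.17, 9.60 and 9.90 in Vav-SB and 5.74, 8.51 and 9.72 in CD4-SB, a difference of 0.94 ± 0.51 (adjusted p = 0.256). CD4-SB replicate 3, at 5.74, stood far below the other CD4-SB tumours. Bub1b, which inhibits the anaphase-promoting complex, had 9.86, 10.12 and 10.48 in Vav-SB and 7.37, 9.08 and 10.45 in CD4-SB. Its Vav-SB tumours lay close together and 4 CD4-SB tumours lay below all of them, with a difference of 0.85 ± 0.36 (adjusted p = 0.141). Ttk (Mps1), the kinase that starts checkpoint signalling, differed by 0.45 ± 0.44 (adjusted p = 0.567), and 2 CD4-SB tumours exceeded every Vav-SB tumour.

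Among the motor proteins was Kif11 (Eg5), which pushes the spindle poles apart and had the largest difference of the mitosis genes. Kif11 had 9.37, 10.39 and 10.84 as its lowest, median and highest level in Vav-SB and 6.75, 9.29 and 10.52 in CD4-SB. The Kif11 difference was 1.07 ± 0.47, a 2.09-fold ratio, and did not pass (adjusted p = 0.149). Kif23, which bundles microtubules in the cleavage furrow, had 8.53, 9.51 and 9.79 against 6.88, 8.64 and 9.71. Kif23 differed by 0.88 ± 0.34 (adjusted p = 0.0973), with 3 CD4-SB tumours below every Vav-SB tumour. Cenpe, the motor of the kinetochore, ran from 8.90 to 10.08 in Vav-SB (median 9.74) and from 6.63 to 9.66 in CD4-SB (median 8.83). For Cenpe, 4 Vav-SB tumours lay above every CD4-SB tumour, with a difference of 0.92 ± 0.37 (adjusted p = 0.116). Kif23 and Cenpe passed without both low tumours, and Kif23 also without CD4-SB replicate 4. Kif20a, another motor of cell division and the mitosis gene with the least spread within the models, had 8.02 to 8.93 (median 8.67) against 7.29 to 9.19 (median 8.08) and differed by 0.38 ± 0.26 (adjusted p = 0.381).

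Of the genes that package chromosomes, Mki67, the proliferation antigen Ki-67, ran from 11.54 to 12.16 in Vav-SB (median 11.95) and from 9.90 to 12.02 in CD4-SB (median 11.51). The value of 9.90 in CD4-SB replicate 3 stood apart, and the other 6 CD4-SB tumours lay between 11.47 and 12.02. Mki67 differed by 0.52 ± 0.26 (adjusted p = 0.215). Top2a, the topoisomerase that untangles sister DNA, had 10.14, 11.19 and 11.49 in Vav-SB and 7.97, 10.27 and 11.17 in CD4-SB, a difference of 0.89 ± 0.42 (adjusted p = 0.179). For Top2a, 4 Vav-SB tumours exceeded every CD4-SB tumour. Cenpa, the histone of centromeres, differed by 0.35 ± 0.26 (adjusted p = 0.434).

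Of the S-phase genes, Tyms passed the test. It encodes thymidylate synthase, which makes the thymidine nucleotide for DNA. The lowest, median and highest level of Tyms was 8.32, 9.42 and 9.57 in Vav-SB and 7.10, 8.02 and 9.29 in CD4-SB. In 4 CD4-SB tumours (replicates 1, 3, 5 and 6) it lay below every Vav-SB tumour, and CD4-SB replicate 7 lay within the Vav-SB range. Tyms was higher in Vav-SB (9.24 ± 0.45 against 8.30 ± 0.74, SD, n = 7 each) by 0.94 ± 0.30, or 1.92-fold (limma adjusted p = 0.0478). That call was lost when any of 10 tumours was left out, CD4-SB replicates 1, 3, 5 and 6 and Vav-SB replicates 1, 2, 4, 5, 6 and 7 (adjusted p up to 0.0936). The adjusted p was 0.0197 without both low tumours, which were picked by their low level of these same genes.

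Other genes of nucleotide supply differed less. Rrm1, the large subunit of ribonucleotide reductase, lay between 9.30 and 10.73 in Vav-SB (median 10.38) and between 8.41 and 10.59 in CD4-SB (median 9.52), a difference of 0.56 ± 0.34 (adjusted p = 0.308). Tk1, the thymidine kinase of the salvage pathway, was measured by only 2 probe sets. Its levels were 7.23, 8.32 and 8.52 in Vav-SB and 7.46, 7.91 and 9.61 in CD4-SB (lowest, median and highest), and 3 CD4-SB tumours exceeded every Vav-SB tumour. The Tk1 difference was -0.18 ± 0.34 (adjusted p = 0.783), and its sign turned in 3 alternatives.

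Both E-type cyclins, which activate Cdk2 at the start of S phase, were measured, and they differed in behaviour. Ccne2 had 7.69, 8.92 and 9.44 as its lowest, median and highest level in Vav-SB and 6.54, 7.24 and 8.91 in CD4-SB. For Ccne2, 4 CD4-SB tumours lay below every Vav-SB tumour and 4 Vav-SB tumours above every CD4-SB tumour. Its difference of 1.10 ± 0.36, or 2.15-fold, was the largest of the S-phase genes and fell just outside the threshold (adjusted p = 0.0508); it passed without both low tumours (0.0337) and without CD4-SB replicate 2, 4 or 7 or Vav-SB replicate 3. Ccne1 had 7.79 to 8.82 in Vav-SB (median 8.35) and 7.49 to 9.13 in CD4-SB (median 8.07), a difference of 0.27 ± 0.24 (adjusted p = 0.535). For Ccne1 the lowest tumour was CD4-SB replicate 2, although the mean deviation over all 21 S-phase genes was 0.29 in that tumour.

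The MCM helicase showed no call among its 6 measured subunits, Mcm2 to Mcm7. Mcm7 had the largest difference, 0.69 ± 0.29 (adjusted p = 0.124), from levels of 7.54, 8.15 and 8.50 in Vav-SB and 6.35, 7.33 and 8.31 in CD4-SB. For Mcm7, 4 CD4-SB tumours lay below every Vav-SB tumour, on 4 probe sets, and Mcm7 passed without CD4-SB replicate 4. Mcm3 had 8.94, 9.67 and 9.90 in Vav-SB and 7.92, 9.51 and 10.16 in CD4-SB, a difference of 0.15 ± 0.29 (adjusted p = 0.798). The Mcm3 difference was -0.11 without CD4-SB replicate 3. Mcm2, Mcm4, Mcm5 and Mcm6 differed by 0.22 to 0.30, with adjusted p between 0.411 and 0.66, and in all 4 the highest CD4-SB tumour (9.18, 9.81, 9.78 and 10.75) lay close to the highest Vav-SB tumour (9.05, 9.68, 9.56 and 10.77).

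Loading and firing of the helicase gave the same picture. Cdc6 and Cdt1, which load MCM on DNA, differed by 0.58 ± 0.41 and 0.09 ± 0.19 (adjusted p = 0.4 and 0.817), and geminin (Gmnn), the inhibitor of Cdt1, by 0.47 ± 0.37 (adjusted p = 0.462). CD4-SB replicate 7 was the highest of the 14 tumours for Cdc6 (8.90), Cdt1 (8.54) and Gmnn (9.83). Cdc45, a cofactor of the active helicase, differed by 0.46 ± 0.28 (adjusted p = 0.312). Gins1 and Gins2, subunits of the complex that joins it there, differed by 0.69 ± 0.33 and 0.12 ± 0.32 (adjusted p = 0.192 and 0.847), and the Gins2 difference was -0.12 without CD4-SB replicate 3.

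Pola1, the catalytic subunit of the polymerase that starts each strand, had 8.24, 9.46 and 9.76 in Vav-SB and 7.29, 8.58 and 9.58 in CD4-SB. Its difference was 0.62 ± 0.33 (adjusted p = 0.248), and Vav-SB replicate 3, at 8.24, stood apart from the rest of its model. Prim1, the primase subunit, differed by 0.51 ± 0.33 (adjusted p = 0.347). Chek1, the checkpoint kinase of stalled forks, had the widest spread within the models of the S-phase genes, from 8.25 to 9.84 in Vav-SB (median 9.24) and from 6.52 to 9.72 in CD4-SB (median 8.46), and differed by 0.69 ± 0.45 (adjusted p = 0.354). E2f1, the factor that drives S-phase genes, had the narrowest, from 7.22 to 7.82 (median 7.46) against 6.55 to 7.70 (median 7.33), with a difference of 0.26 ± 0.15 (adjusted p = 0.297). Only 4 of the 10 probe sets of E2f1 lay above the median level of all probe sets, and a dim signal can narrow its spread.

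In G1, Ccnd2 (cyclin D2) had the only difference past the threshold, and it ran in the other direction from those of Foxm1 and Tyms. Ccnd2 stood at 7.74, 7.77, 8.50, 7.68, 7.35, 8.31 and 7.79 in Vav-SB replicates 1 to 7. In CD4-SB replicates 1 to 7 it stood at 10.48, 7.38, 10.78, 9.81, 9.58, 10.84 and 9.86. Thus 6 of 7 CD4-SB tumours lay above every Vav-SB tumour, and CD4-SB replicate 2 lay at the bottom of the Vav-SB range. Ccnd2 was higher in CD4-SB (9.82 ± 1.18 against 7.88 ± 0.39, SD, n = 7 each), with a difference of -1.94 ± 0.43, or 3.84-fold (limma adjusted p = 0.00816). It kept that call when each tumour was left out in turn (adjusted p up to 0.0205), and 6 of its 7 probe sets passed on their own.

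**Figure D3:**
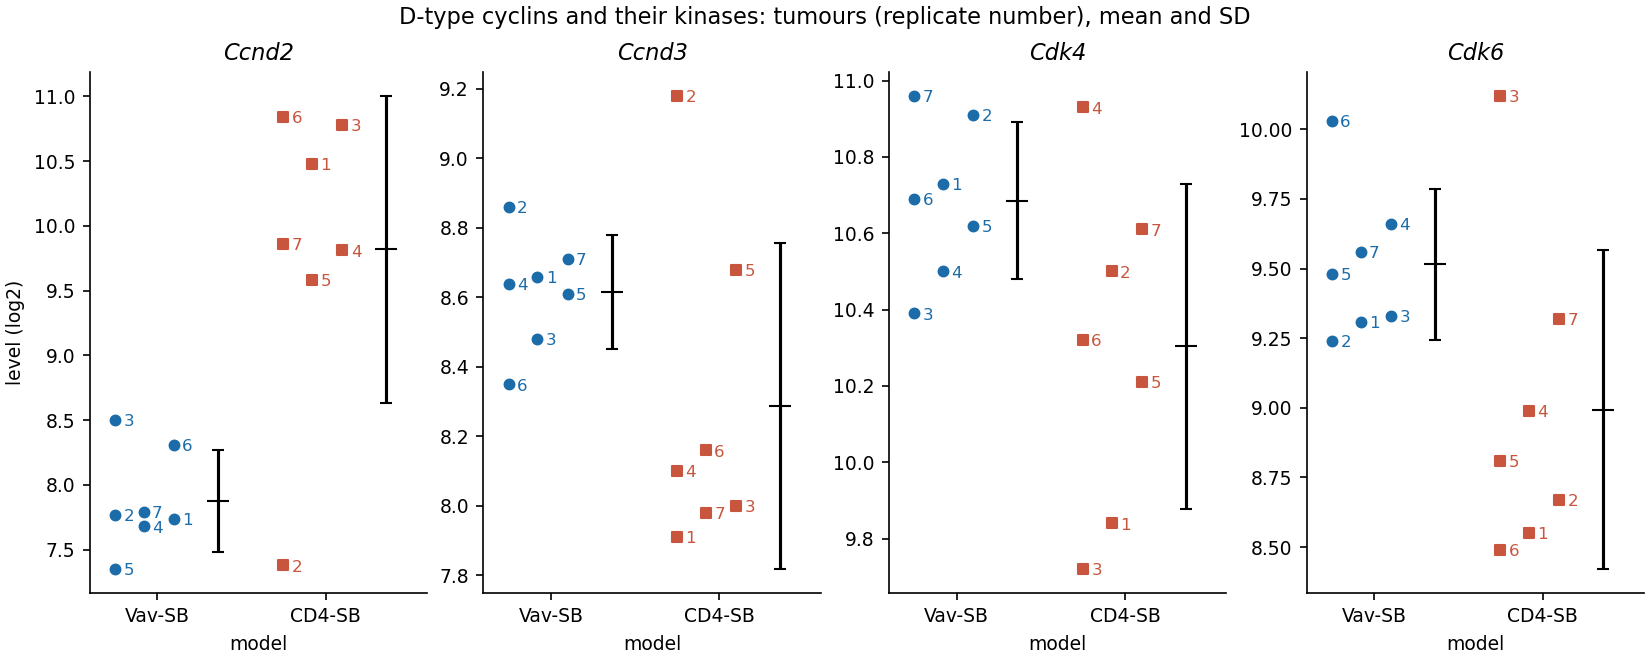
Log2 level of Ccnd2, Ccnd3, Cdk4 and Cdk6 in each tumour, labelled by replicate number, for Vav-SB (circles) and CD4-SB (squares), with the mean and SD of 7 tumours beside them; each panel has its own axis. CD4-SB replicate 2 is the lowest CD4-SB tumour for Ccnd2 (7.38) and the highest of all 14 for Ccnd3 (9.18).

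Ccnd3 (cyclin D3), which early thymocytes use to expand, stood at 8.66, 8.86, 8.48, 8.64, 8.61, 8.35 and 8.71 in Vav-SB replicates 1 to 7. In CD4-SB replicates 1 to 7 it stood at 7.91, 9.18, 8.0, 8.10, 8.68, 8.16 and 7.98. In Ccnd3, 5 CD4-SB tumours lay below every Vav-SB tumour and CD4-SB replicate 2 lay above every one. The difference of 0.33 ± 0.18 did not pass (adjusted p = 0.252), and did so without CD4-SB replicate 2. Ccnd2 and Ccnd3 ran against each other over the 14 tumours (Pearson r = -0.83, Spearman rho = -0.74). Within CD4-SB r was -0.88 (rho = -0.54), and -0.64 on 5 tumours, without replicates 2 and 6. Within Vav-SB r was -0.63 and became 0.59 on 5 tumours, so there the relation rests on replicates 3 and 6.

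The kinases of the D-type cyclins did not pass. Cdk4 had 10.39, 10.69 and 10.96 as its lowest, median and highest level in Vav-SB and 9.72, 10.32 and 10.93 in CD4-SB, a difference of 0.38 ± 0.17 (adjusted p = 0.155) that passed without CD4-SB replicate 4. Cdk6 had 9.24, 9.48 and 10.03 in Vav-SB and 8.49, 8.81 and 10.12 in CD4-SB, a difference of 0.52 ± 0.22 (adjusted p = 0.136). For Cdk6, 5 CD4-SB tumours lay below every Vav-SB tumour, and the highest of all 14 was CD4-SB replicate 3. Without that tumour Cdk6 passed, and CD4-SB replicate 3 was thus the lowest tumour for the mitosis genes and the highest for Cdk6.

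The probe sets of each gene were also tested singly, over all 179496 probe sets with a single gene name. Of the 618 probe sets of these genes, 598 had a difference above 0 and 20 below 0. At an adjusted p under 0.05 (limma, over all probe sets), 6 were higher in Vav-SB, against 4.53% of all probe sets, and 6 in CD4-SB, against 3.99%. Those higher in Vav-SB were 2 of Ccne2 and 1 each of Aurka, Foxm1, Kif23 and Tyms, and those higher in CD4-SB were all of Ccnd2. Within a gene the probe sets mostly shared a sign. The differences ran from 0.72 to 1.33 over 19 probe sets of Kif11, from 0.31 to 1.24 over 43 of Cenpe, and from -2.40 to -0.42 over 7 of Ccnd2.

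The spread between tumours was larger in CD4-SB for every one of the 44 genes. The SD over 7 CD4-SB tumours was 1.40 to 5.64 times the SD over 7 Vav-SB tumours, with a median of 2.17. Over all 15803 genes the median ratio was 1.37 and 73.5% were larger in CD4-SB. For the mitosis genes the median ratio was 2.33, which became 1.28 when CD4-SB replicate 3 was left out, and for the S-phase genes it was 1.96 and became 1.55; over all genes it was then 1.31. Without CD4-SB replicate 3 the SD was larger in CD4-SB in 42 of 44 genes, against 69.9% of all genes. Without replicate 3 of both models the median ratio was 2.19 for the mitosis and 2.30 for the S-phase genes, against 1.46 over all genes, and the SD was larger in CD4-SB in 44 of 44 genes. The ratio was not tested.

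S-phase and mitosis genes followed each other tumour by tumour. Over the 14 tumours the mean deviations of the 21 S-phase and 19 mitosis genes correlated with r = 0.95 (rho = 0.85), and r was 0.91 without CD4-SB replicates 3 and 5, the 2 tumours farthest from the median of the S-phase genes. With each tumour taken less the mean of its model, r was 0.94 (rho = 0.96; 0.91 without replicate 3 of each model). Within CD4-SB r was 0.94, and 1.00 on 5 tumours, without replicates 3 and 7. Within Vav-SB r was 0.95, and 0.56 on 5 tumours, without replicates 3 and 4, so that the relation within Vav-SB rests on those tumours. These are descriptions; both sums come from the same arrays and share each array's RNA quality and cell content.

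**Figure D4:**
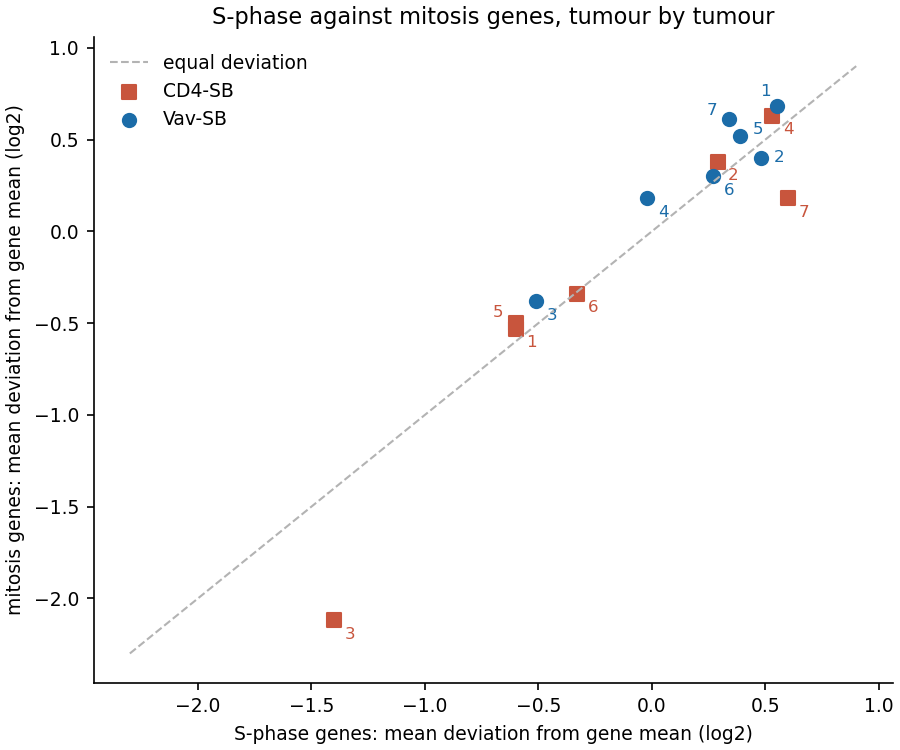
Mean log2 deviation of 21 S-phase genes (x axis) and 19 mitosis genes (y axis) from the mean of each gene over 14 tumours; each point is a tumour with its replicate number, and the dashed line marks equal deviations. CD4-SB replicate 3 lies farthest down, at -1.40 and -2.12, and CD4-SB replicate 7 lies to the right of the line, at 0.60 and 0.18.

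In 2 tumours the phases parted. CD4-SB replicate 3 was lower in mitosis than in S-phase genes by 0.72, and CD4-SB replicate 7 by 0.42. In the other 12 tumours the S-phase deviation minus the mitosis deviation lay between -0.27 and 0.08. CD4-SB replicate 7 was the highest of the 14 tumours for 7 of 21 S-phase genes and for 1 of 19 mitosis genes. The S-phase genes include Tk1 at 9.61, Gmnn at 9.83 and Cdc6 at 8.90 in that tumour.

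Single genes followed this common level closely. Each gene was correlated with the mean of the other S-phase and mitosis genes over the 14 tumours, each less the mean of its model. The correlation was at least 0.8 for 19 of 19 mitosis and 20 of 21 S-phase genes, against 4.30% of all genes. These counts include CD4-SB replicate 3 and Vav-SB replicate 3, the lowest of their models in most of these genes. Counts without them are not given here. The lowest was Ccne1 at 0.57, and Prim1 and Cdc45 were highest at 0.99. Of the G1 genes, Cdk4 reached 0.89, whereas Ccnd3 had 0.29, Cdk6 -0.43 and Ccnd2 -0.55. With model means left in, Cdk6 had -0.10, and 0.40 without CD4-SB replicates 3 and 6, so its sign rests on those tumours. By the same measure, each without its 2 farthest tumours, Ccnd2 (-0.65 and -0.48), Cdk4 (0.91 and 0.85) and Ccnd3 (0.42 and 0.36) kept their sign. All genes share the same 14 arrays.

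The genes just outside the 47 were taken from 3 lists of the same pathways. Of 37 other replication genes, 2 passed as higher in Vav-SB and 0 as higher in CD4-SB (limma adjusted p under 0.05; 4 at an unadjusted p under 0.05 in either direction), with a median difference of 0.32. Of all genes, 7.28% passed as higher in Vav-SB and 7.18% as higher in CD4-SB. The replication count higher in Vav-SB was 4 without both low tumours (7.33% of all genes). When tumours were left out in turn it was 0 to 4 (5.42% to 7.66% of all genes). It was 4 without CD4-SB replicate 7. Without CD4-SB replicate 1 or 6 or Vav-SB replicate 1 it was 1, and the call that remained was Cdc25a. Without Vav-SB replicate 2 it was 0 (limma, 4 at an unadjusted p under 0.05). Dut, which removes dUTP so that uracil is kept out of DNA, was 1.75-fold higher in Vav-SB (10.25 ± 0.28 against 9.44 ± 0.58, adjusted p = 0.0266). Cdc25a, the phosphatase that activates Cdk2, was 1.59-fold higher (8.82 ± 0.25 against 8.15 ± 0.44, adjusted p = 0.0229), and 6 Vav-SB tumours lay above every CD4-SB tumour.

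Of 45 other mitosis genes, 3 passed as higher in Vav-SB and 1 as higher in CD4-SB, with a median difference of 0.65, beside the same 7.28% and 7.18% of all genes. Without both low tumours 10 passed as higher in Vav-SB (7.33% of all genes). With tumours left out in turn 1 to 5 did (5.42% to 7.66% of all genes). The count was 1 without Vav-SB replicate 5 and 5 without CD4-SB replicate 2 or 4 or Vav-SB replicate 3. Anln (anillin), a scaffold of the cleavage furrow, was 2.07-fold higher in Vav-SB (8.82 ± 0.40 against 7.77 ± 0.80, adjusted p = 0.0341), and Ect2, which activates RhoA there, 1.89-fold (9.21 ± 0.54 against 8.29 ± 0.46, adjusted p = 0.0226). Kifc1, a motor that gathers centrosomes, was 1.67-fold higher (8.92 ± 0.24 against 8.17 ± 0.40, adjusted p = 0.00884). It was measured by only 1 probe set. Anln lost its call without CD4-SB replicate 1, 3, 5 or 6 or Vav-SB replicate 1, 2, 4, 5 or 7, and Ect2 without Vav-SB replicate 5. Pttg1 (securin), the inhibitor of separase, was the exception: its CD4-SB mean was 1.31-fold higher (10.02 ± 0.18 against 9.63 ± 0.19, adjusted p = 0.0191), and all 7 CD4-SB tumours lay above every Vav-SB tumour.

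Of 26 other genes of G1, the E2F family and the MuvB complex, 5 passed as higher in Vav-SB and 1 as higher in CD4-SB, with a median difference of 0.27, against 7.28% and 7.18% of all genes. The counts were 9 and 2 without both low tumours (7.33% and 7.05% of all genes). With tumours left out in turn, 4 to 9 passed as higher in Vav-SB (5.42% to 7.66% of all genes). The count was 4 without CD4-SB replicate 1, 5 or 6 or Vav-SB replicate 1, 2, 5 or 6. Without Vav-SB replicate 3 the counts were 9 and 1. Leaving out CD4-SB replicate 3, 4 or 7 gave 2 higher in CD4-SB. Cdkn2c (p18INK4c), an inhibitor of Cdk4 and Cdk6, was 1.89-fold higher in Vav-SB (9.87 ± 0.36 against 8.95 ± 0.60, adjusted p = 0.0205). Lin9, a subunit of MuvB, was 1.83-fold higher (7.58 ± 0.33 against 6.70 ± 0.40, adjusted p = 0.00636), and Lin52, another subunit, 1.25-fold (7.73 ± 0.17 against 7.41 ± 0.17, adjusted p = 0.0384). Skp2, which marks the inhibitor p27 for destruction, was 1.79-fold higher (8.60 ± 0.29 against 7.77 ± 0.45, adjusted p = 0.00953), and E2f2 1.57-fold (7.14 ± 0.19 against 6.49 ± 0.37, adjusted p = 0.0101). Lin52 was measured by only 2 probe sets. Its call was lost with medians over probe sets and with only probe sets above the median level. It was also lost without CD4-SB replicate 1, 2, 5, 6 or 7 or Vav-SB replicate 1, 2, 5 or 6. Lin9 and E2f2 were dim, with 6 of 12 and 4 of 10 probe sets above the median level. Both fell among the dim genes, so they were not tested when those were left out. With only probe sets above the median level, both passed. Cdkn1a (p21), an inhibitor of Cdk2, stood 2.15-fold higher in CD4-SB tumours (8.25 ± 0.47 against 7.15 ± 0.49, adjusted p = 0.00709). Across these tumours Skp2 and E2f2 followed the S-phase and mitosis genes (r = 0.92 and 0.90, each less its model mean), whereas Cdkn2c and Lin52 did not (-0.04 each).

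Markers of other cell types also differed between the models. Of 34 markers of myeloid, dendritic, B, stromal and endothelial cells 31 were measured, of which 12 were higher in CD4-SB, against 7.18% of all genes, and 1 in Vav-SB, against 7.28%. Their mean level ranged from 7.78 to 8.55 in Vav-SB and from 8.24 to 9.50 in CD4-SB. Vav-SB minus CD4-SB, it differed by -0.83 on average (exact permutation p = 0.00291, two-sided, 3432 splits), and 5 CD4-SB tumours lay above every Vav-SB tumour. Log2 array values have no 0, so none of these markers can be called absent. Over the 14 tumours the marker level correlated with the mitosis genes at r = -0.68 (rho = -0.64) and with the S-phase genes at r = -0.69 (rho = -0.57). Against the mitosis genes, r was -0.60 (rho = -0.86) within CD4-SB. Within Vav-SB r was -0.56 (rho = -0.11), and it became 0.91 without replicates 3 and 6. The T-lineage markers correlated with the mitosis genes at r = 0.20 (rho = 0.42) over the 14 tumours. Within Vav-SB that r was -0.03 and within CD4-SB -0.32. CD4-SB replicate 4 had both a marker level of 8.87 and high mitosis genes (0.63). Erythroid markers, of which 2 of 6 were measured, ran the other way, with a median difference of 0.49 and levels of 6.40 to 7.82 in Vav-SB and 6.09 to 6.89 in CD4-SB, and neither passed (limma; 1 at an unadjusted p under 0.05). Their level was highest in Vav-SB replicate 3, the lowest Vav-SB tumour in the mitosis genes, and the part of erythroid cells in that was not tested.

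**Figure D5:**
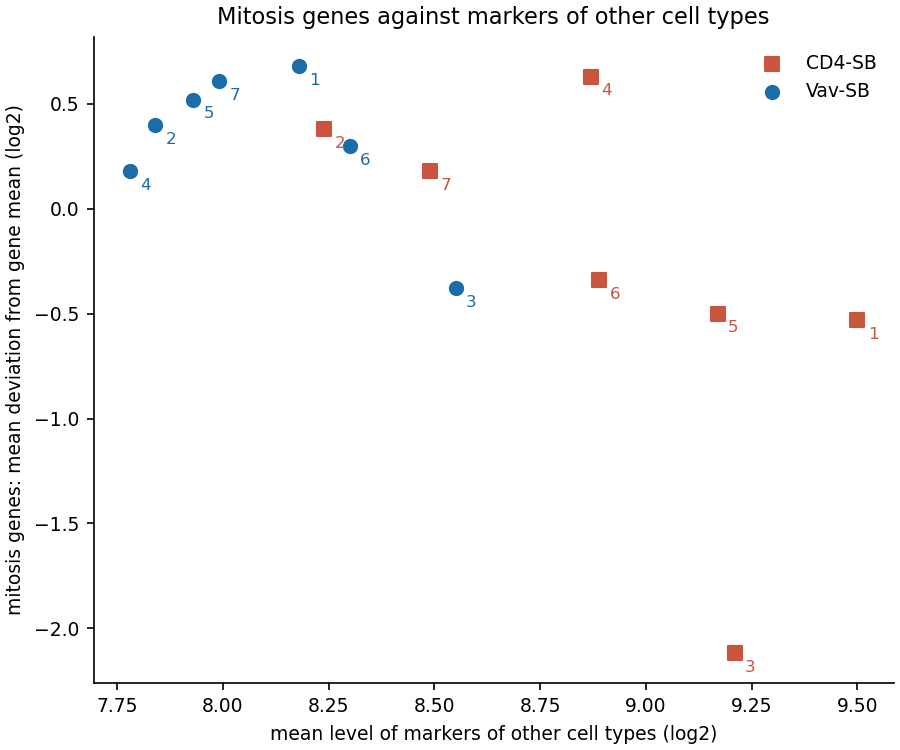
Mean log2 level of 31 markers of other cell types (x axis) against the mean log2 deviation of 19 mitosis genes (y axis), with each point a tumour and its replicate number. The Vav-SB tumours lie between 7.78 and 8.55 on the x axis, and 5 CD4-SB tumours lie to the right of all of them.

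With the marker level as a covariate in the fit, the signs did not hold. Of 44 differences 36 turned, among them Tyms (from 0.94 to -0.004) and Mcm5 (from 0.22 to -0.63). Foxm1 went from 0.88 to 0.18, Ccne2 from 1.10 to 0.01 and Ccnd2 from -1.94 to -0.50 (adjusted p = 0.83, 0.99 and 0.609). In that fit 0 of the 44 genes passed in either direction (limma; 0 above 0 and 2 below 0 at an unadjusted p under 0.05), and 2.14% of all genes did (1.59% higher in Vav-SB, 0.551% in CD4-SB). In the 3 lists of other pathway genes 0 passed too. At an unadjusted p under 0.05, 8 other replication genes lay below 0 and 0 above, and 0 other mitosis genes passed. Of the other G1 genes, 3 lay above 0 and 1 below. For this fit the share of all genes at that unadjusted p is not given here. The unadjusted counts, also those of the 44 genes, therefore have no background beside them. The marker level itself differs between the models, so the model and the markers can be told apart only in part by 14 tumours. The part of other cells in the differences between the models was not tested further.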

How the data were processed

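RNA of 14 frozen thymic lymphomas was amplified from 50 nanograms by a single-primer isothermal method and hybridised to mouse exon arrays, per the labels' protocols. The authors deposited 1 log2 value per probe set and tumour; RMA and Partek are named, without versions, in the submitters' processing notes. The log base is not given in the sources used here and was read from the deposited values (2.03 to 14.03). The genome build of the probe annotation was not used here.

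Of 194293 probe sets, 179496 had 1 gene symbol, 1328 several and 13469 none in the platform annotation. Symbols were updated through a gene table of GRCm38.p6 (13727 current, 2014 replaced, 32 ambiguous, 25 whose current symbol was taken, 5 unmatched), so that Cdc2a became Cdk1 and Cdc45l became Cdc45. Gene levels are means over probe sets; dim genes were kept. The strain label gave the groups. Differences are Vav-SB minus CD4-SB, tested with limma 3.58.1 (R 4.3.3; lmFit and eBayes), adjusted by Benjamini and Hochberg's method over 15803 genes, at a threshold of 0.05. Adjusted p-values of genes come from this limma fit, errors of differences are its SE, and intervals are at 95%. Precision is limited by the number of tumours, 7 a model. The fit was tested on simulated data in which 200 of 15803 genes were shifted. It recovered 46% of those shifted by 0.5 (log2), 94% at 1, 100% at 2 and 100% at 4, with 10 calls among unchanged genes. These shares need not hold for the 44 genes, which spread more widely between tumours than most genes. Over Vav-SB tumours their median SD of 0.38 exceeded the 0.19 of all genes. Over CD4-SB tumours, 0.84 exceeded 0.26. Recovery was not measured for the 44 genes alone, so a miss among them does not show that a gene is unchanged.

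The 47 genes and the lists around them were chosen with earlier results of these data known. Values were given in full for genes past the threshold, for the 12 with the smallest p, for the widest and narrowest spread in each phase, and for genes with a tumour apart from its model by Dixon's test (critical value 0.568 for 7 tumours). Other pathway genes were named where they passed, at most 6 per list. Alternatives covered the summary over probe sets, dim probe sets and genes, quantile normalization, array weights, the variance prior, the title number, markers of other cells, annotated symbols and leaving out tumours. Promoter windows of Ccnd2, Foxm1 and Ccne2, among others, were not analysed here.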

Additional observations from a re-analysis of the deposited data

Results flagged for a closer look

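Single tumours stood apart from the other 6 of their model by Dixon's test in 15 of 88 groups (44 genes in each of the models). The nominal rate of the test is about 1 in 20. The share over all genes is not given here, so the count is not read as a trait of these genes. In 8 of the 15 the tumour was CD4-SB replicate 3, at a low log2 level of Mki67 (9.90), Bub1 (5.74), Ccna2 (7.28), Ccnb2 (7.79), Cenpe (6.63), Birc5 (7.49), Cdk1 (7.26) and Mcm3 (7.92). In 6 it was Vav-SB replicate 3, at a low level of Top2a (10.14), Aurkb (8.58), Ccna2 (9.26), Tyms (8.32), Pola1 (8.24) and Tk1 (7.23). These genes rise and fall together over the tumours, so the groups are not independent of one another. In the remaining group CD4-SB replicate 2 was low for Ccnd2 (7.38), while the other 6 CD4-SB tumours lay between 9.58 and 10.84. The cause was not tested.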

How the results depend on the processing

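The number of these genes higher in Vav-SB, 2 in the comparison as reported, was 0 with medians over probe sets (limma; 9 at an unadjusted p under 0.05; 5.57% of all genes passed) and 0 when the marker level of other cells was a covariate (limma; 0 unadjusted; 1.59%). It was 1 with probe sets above the median level (8.52%), 1 with a trended prior (7.19%), 1 with a single tumour per title number (5.87%) and 9 with array weights (9.07%). It ran from 0 to 6 when tumours were left out in turn and was 7 without CD4-SB replicate 3 and Vav-SB replicate 3, a choice made after seeing the data. It was 3 with quantile normalization (8.69%), with dim genes left out (12.8%) and with the title number as a random block (correlation -0.162; 8.60%), and 2 with symbols as annotated (7.28%). The number higher in CD4-SB stayed at 1 (Ccnd2) except for 0 with the marker covariate. Among 534 brighter probe sets of these genes, 15 (2.81%) were higher in Vav-SB in place of 6, against 8.52% of all 91149 brighter probe sets. With both models together the correlation of S-phase and mitosis genes lay between 0.91 and 0.96, also with deviations from the mean of all 14 tumours, added after seeing the data; within Vav-SB it was 0.56 without replicates 3 and 4.

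With the marker covariate the median difference was -0.52 for the S-phase, -0.20 for the mitosis and -0.10 for the G1 genes, and over all genes -0.07. Differences that turned were Chek1 -0.79, Gmnn -0.75, Ttk -0.74, Mcm3 -0.71, Mcm4 and Gins2 -0.68, Aurkb -0.65, Mcm5 -0.63, Cdk1 -0.57, Rrm1 and Cdc6 -0.56, Mcm2 -0.55, Bub1 -0.54, Pola1 -0.52, Prim1 -0.49, Cenpa -0.48, Mcm6 and Cdt1 -0.47, Kif20a -0.39, Top2a and Cdc45 -0.37, Ccna2 -0.32, Kif11 -0.24, Ccnb2 -0.20, Birc5 -0.18, E2f1 -0.17, Ccnd3 -0.12, Mki67 and Gins1 -0.11, Cdc20 -0.10, Cdk4 -0.09, Plk1 and Cenpe -0.07, Bub1b -0.06, Mcm7 -0.05, Tyms -0.004. Other turned signs were small: Mcm2 was -0.0031 with medians over probe sets, Gins2 -0.0016 without both low tumours, and Tk1 0.04 with brighter probe sets and 0.12 with a single tumour per title number. Leaving out tumours in turn, Mcm3 ran from -0.11 to 0.27, Gins2 from -0.12 to 0.29 (both below 0 without CD4-SB replicate 3) and Tk1 from -0.33 to 0.03 (above 0 without CD4-SB replicate 7). The cause was not tested. No paired analysis was possible because replicates were numbered in accession order and pair no tumours. Low values lie near background, where array differences are understated, and 7 tumours per model limit which differences can be called.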
